A study of Homo sapiens with 12 samples.

Results

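Chromatin accessibility in KO-52 cells that carried the p42 form of C/EBPα was compared with that in cells that carried an empty vector (EV), both in DMSO, the solvent control. The members were the accessible regions of the 2 conditions. Peaks from chromosomes 1 to 22 and X of the p42 list and the EV list were merged wherever they shared at least 1 bp, and each merged region was classed by the list or lists that contributed to it. This gave 282723 regions, of which 100354 (35.5%) were p42-only, 149490 were shared and 32879 (11.6%) were EV-only. Merging all 6 lists of the series gave 355051 regions.

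KO-52 is a human acute myeloid leukemia (AML) cell line with mutations of both CEBPA alleles, so that all groups, controls included, shared this background. The series holds 12 ATAC-seq samples, 2 each of EV, p42 and p30 cells in DMSO or after tunicamycin (Tm), an inhibitor of protein glycosylation that causes endoplasmic reticulum stress. Tm was given at 2 µg/mL for 8 h. The study's methods name p42-ERT2 and p30-ERT2 vectors with GFP sorting for long-term expression in KO-52, FLAG-tagged plasmids for transient expression, and 4-hydroxytamoxifen for all ERT2 experiments, EV controls included. The labels of these libraries do not say which construct was used. The paper describes the p42 and p30 cells of its ATAC-seq as transduced. In its methods the ERT2 vectors were transduced into KO-52, whereas the FLAG-tagged plasmids were electroporated. The labels also do not say whether the 2 samples of a group came from separate cultures. The paper states in general that its measurements came from distinct samples.

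C/EBPα is a leucine zipper transcription factor that binds DNA as a dimer and directs granulocyte and monocyte differentiation. Its full-length form is p42, and p30 is a shorter form, started at an internal codon, that lacks part of the activation domain and is retained in many CEBPA-mutant leukemias. C/EBP dimers bind palindromes built from the letters TTGC and GCAA, and C/EBP proteins also pair with AP-1 and ATF partners on sites that join a TTGC arm to an arm of the partner. AP-1 dimers of FOS and JUN proteins bind TGAGTCA, and RUNX proteins bind TGTGGT. In ATAC-seq the Tn5 transposase cuts open DNA, so that a peak marks a place where cuts cluster.

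The sequences below are chosen examples of words that differed in frequency between the classes. Most regions of each class held none of these words. Each is the 61 bases around the summit of a region in hg38, on the plus strand, with the letters of the searched word in capitals. The first set gives 4 of the strongest p42-only regions with a C/EBP word (TTGCGCAA, or TTGCACAA on either strand) within 20 bp of the summit, named by the protein-coding gene with the nearest start. It is a selection and not a ranking. A stronger region nearest COX7B2 is left out, which also had 7 tags in p30 DMSO, 8 in EV Tm and 6 in p30 Tm.
BRCA2 (chr13:32362759-32362819): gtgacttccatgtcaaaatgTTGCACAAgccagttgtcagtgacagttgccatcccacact
RAD51B (chr14:68248016-68248076): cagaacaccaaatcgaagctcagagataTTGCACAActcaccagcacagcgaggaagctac
SLX4IP (chr20:10505499-10505559): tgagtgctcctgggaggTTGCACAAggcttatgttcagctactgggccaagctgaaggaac
RNASE3 (chr14:20904818-20904878): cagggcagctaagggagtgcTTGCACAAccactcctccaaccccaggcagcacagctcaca

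All 4 lay in introns. The BRCA2 region had 33 tags at its summit in p42 DMSO, no peak in EV DMSO, 27 tags in p42 Tm, and no peak in EV Tm, p30 DMSO or p30 Tm. The RNASE3 region, 13463 bp from the start of a gene for an eosinophil granule ribonuclease, had 21 tags in p42 DMSO, 11 in p42 Tm and 6 in EV Tm, with no peak in EV DMSO or in either p30 list. The SLX4IP region was less restricted, with 34 tags in p42 DMSO and 19 to 30 in the 4 lists that were not compared here. The next set shows 2 p42-only regions with the composite C/EBP:AP-1 word (GTGTTGCAA or ATGTTGCAA), in which one arm is that of C/EBP.
RFX8 (chr2:101509728-101509788): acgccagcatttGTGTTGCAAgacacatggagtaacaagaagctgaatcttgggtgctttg
GAB4 (chr22:16904168-16904228): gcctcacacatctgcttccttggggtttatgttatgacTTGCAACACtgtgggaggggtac

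The RFX8 region had 18 tags in p42 DMSO and no peak in EV DMSO, and the GAB4 region had 20 tags and no peak. The third set gives 5 of the strongest EV-only regions with an AP-1 word within 20 bp of the summit. Some stronger EV-only regions with an AP-1 word are left out, so that the set is a selection and not a ranking.
ZMIZ1 (chr10:78579045-78579105): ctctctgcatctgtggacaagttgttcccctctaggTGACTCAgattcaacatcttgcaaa
EMCN (chr4:100549467-100549527): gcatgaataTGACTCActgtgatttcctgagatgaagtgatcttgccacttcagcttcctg
DLG1 (chr3:197317431-197317491): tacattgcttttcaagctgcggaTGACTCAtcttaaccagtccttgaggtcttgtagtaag
LHX1 (chr17:36850890-36850950): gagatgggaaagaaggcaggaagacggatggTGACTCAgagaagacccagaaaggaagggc
RNF216 (chr7:5642096-5642156): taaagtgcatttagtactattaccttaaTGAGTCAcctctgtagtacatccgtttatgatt

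These EV-only regions had 15 to 23 tags in EV DMSO and no peak in p42 DMSO. All 5 also had a peak in p30 DMSO, with 7 to 21 tags, and in both EV Tm and p30 Tm. The EMCN region had no peak in p42 Tm either, with 16 tags in EV DMSO, 21 in p30 DMSO, 14 in EV Tm and 17 in p30 Tm.

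The p42 list was the deeper of the 2 lists. It held 254239 peaks against 187704 in EV (253445 and 187113 on the chromosomes used), and its lowest local background corresponded to an estimated depth of 30.0 M tags against 22.2 M in EV. Both lists began at 4 tags and at a -log10 q of 1.3, so that the deeper library could reach weaker sites. Each list pools both replicates, which leaves 1 list per condition. There was accordingly no replicate error, no p-value is given, and the 95% Wilson intervals below cover the counting of regions only. The absence of a peak means that the caller's threshold was not reached, not that the DNA was closed.

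The p42-only regions were mostly weak. Their median width was 91.0 bp and their median strength stood at percentile 26.0 of the p42 list, against 241 bp and percentile 69.3 for shared regions. EV-only regions had a median width of 82.0 bp and stood at percentile 22 of the EV list. Each list was also ordered by strength and divided into 10 bins by percentile, in which ties made the weak bins uneven. Of the p42 peaks, 19.0% overlapped an EV peak in the weakest bin and 99.9% in the strongest. Of the EV peaks, 50% overlapped a p42 peak in the weakest bin and 100% in the strongest.

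Taking the same number of peaks from each list, the 187113 strongest, makes the p42-only and EV-only classes nearly equal in number by construction. It left 232364 regions, of which 49943 (21.5%) were p42-only, 134648 shared and 47773 (20.6%) EV-only. The ratio of p42-only to EV-only regions was 3.05 with all peaks. The ratio of 1.05 with equal numbers follows from that construction and does not measure the excess. Among strong regions, those with a -log10 q of at least 10 in one list and no peak at all in the other, 4508 (1.59% of all regions) were p42-only and 372 (0.132%) were EV-only, a ratio of 12.1. Scaling the p42 tags to the EV depth (by 0.742) and judging both lists by the EV limit left 1407 strong p42-only and 397 strong EV-only regions, a ratio of 3.54. Over all regions the same scaling, judged by the lowest EV limit, left 92941 p42-only and 34180 EV-only regions. The size of the excess in p42 therefore varied with the cut on strength and, among strong regions, with the scaling. The differences in sequence described next kept their direction.

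C/EBP words were several times more frequent in p42-only than in EV-only regions. Within 100 bp of the summit, 2.96% of p42-only regions (95% interval 2.86 to 3.07), 1.22% of shared regions and 0.447% of EV-only regions (0.381 to 0.525) held one, against 1.75% of all regions. With equal numbers of peaks the shares were 3.61% of p42-only and 0.534% of EV-only regions. Strong p42-only regions held one in 6.57% of cases (5.88 to 7.33). None of the 372 strong EV-only regions did, which allows a share of up to 0.806% by the limit of 3 counts and 1.02% by the Wilson interval.

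Related words followed the same order. The composite C/EBP:AP-1 word was found in 1.31% of p42-only, 0.482% of shared and 0.170% of EV-only regions. The word TGATGCAA, which joins a TTGC arm to the arm of ATF4, a factor of the integrated stress response, was found in 2.02%, 0.926% and 0.560%. TTACGTAA, the site of NFIL3 and the PAR-domain factors, was rare, in 0.292% of p42-only and 0.0304% of EV-only regions, and had the highest ratio of the 20 motifs searched (9.60). At least one of the C/EBP, C/EBP:AP-1 and ATF4 words was present in 6.2% of p42-only, 2.59% of shared and 1.17% of EV-only regions. Among strong regions it was present in 12.8% of the p42-only (11.9 to 13.8) and 0.538% of the EV-only regions (0.148 to 1.94). Most p42-only regions, strong ones included, thus held none of these exact words, and variants of them were not counted here.

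AP-1 and RUNX words had the opposite order. The AP-1 word TGAGTCA was found in 6.48% of p42-only regions (6.33 to 6.64), 10.0% of shared and 14.3% of EV-only regions (14.0 to 14.7). Of strong EV-only regions, 29.0% held it (24.7 to 33.8), against 5.97% of strong p42-only regions. The RUNX word TGTGGTT was found in 7.05% of p42-only and 11.9% of EV-only regions, and in 9.01% and 23.4% of the strong ones. An AP-1 or a RUNX word was present in 47.6% of strong EV-only regions (42.6 to 52.7) and 14.7% of strong p42-only regions. The GATA word AGATAAG, bound by GATA factors of progenitor and erythroid cells, had a p42-only to EV-only ratio of 0.610.

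Words of other factors differed less. The PU.1 word GAGGAAGT, the site of a master regulator of myeloid cells, was in 6.78% of p42-only and 4.96% of EV-only regions, a ratio of 1.37, and was most frequent in shared regions (8.06%). MYB and CTCF words had ratios of 1.02 and 1.06. The YY1 ratio was 2.07, but YY1, NRF1, SP and ETS words, which are typical of promoters, belonged mainly to shared regions. The NRF1 word, for example, was 0.0825 times as frequent in p42-only as in shared regions.

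The class of a region moved with the number of C/EBP, AP-1 and, in part, RUNX words it held. Of the 277779 regions with no C/EBP word, 35.1% were p42-only, compared with 60% of the 4884 with 1 word (58.6 to 61.3) and 75% of the 60 with 2 or more (62.8 to 84.2). The EV-only share was 11.8%, 2.99% and 1.67% in the same order. With AP-1 words the order turned, with 36.6%, 25.5% and 13.6% of regions p42-only and 11%, 17.9% and 19.5% EV-only. RUNX words went the same way for p42-only regions, 36.4%, 27.1% and 17.0%, whereas the EV-only share did not increase beyond 1 word (11.3%, 14.7% and 14.1%). With the composite C/EBP:AP-1 word the p42-only share was 35.3%, 62.8% and 63.1%, with no clear rise beyond 1 word.

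The words also lay where the cuts were. C/EBP words were 4.27 times as dense within 50 bp of the summit as beyond 300 bp in p42-only regions, 1.60 times in shared regions and 0.532 times in EV-only regions. AP-1 words were concentrated at the summit in every class, 2.48 times in p42-only, 4.49 times in shared and 6.35 times in EV-only regions. Far from the summit the 3 classes were alike, with 4.12, 3.63 and 3.77 C/EBP words per 1000 regions per 100 bp, and 17.0, 16.4 and 17.9 AP-1 words. In EV-only regions C/EBP words were thus less dense at the summit than around it.

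The contrast held within ranges of peak strength. The C/EBP share of p42-only regions was 2.19%, 2.66%, 3.78% and 6.57% in the 4 ranges of -log10 q that began at 1.3, 3, 5 and 10. That of EV-only regions was 0.436%, 0.517%, 0.303% and 0%. For AP-1 the p42-only share was 6.80%, 6.41%, 6.31% and 5.97%, and the EV-only share 11.7%, 14.5%, 18.8% and 29.0%. Strength therefore moved with C/EBP words in p42-only regions and with AP-1 words in EV-only regions. The share varied with base composition, but among the regions lowest in GC, when they were divided into 3 equal groups, it was 3.98% in p42-only and 0.626% in EV-only regions, and among the highest 1.72% and 0.209%.

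All 8-letter words within 50 bp of the summits were then counted, without regard to known motifs. Of 6096 words present in at least 0.5% of either class, 101 (1.66%) were at least 2-fold more frequent in p42-only regions and 87 (1.43%) in EV-only regions. The 10 words with the highest ratios were ATTGCGCC (19.6), TGGCGCAA (17.3), GATTGCGC (16.3), AGATTGCG (13.2), TTGCACAA (8.86), TGTTGCAA (7.90), GTGGCGCA (6.18), GATTGCAC (5.44), TTGTGAAA (5.12) and GAGATTGC (5.10). TTGCACAA and TGTTGCAA are C/EBP and C/EBP:AP-1 words, and 7 of the others overlap each other as parts of a single longer sequence, which leaves TTGTGAAA. At the other end were GAGATACC (0.232), ATGGTATC (0.264), ATGAGTCA (0.284), ATGACTCA (0.285), GTATCTCA (0.295), ATGAGATA (0.318), AACAGGTG (0.322), ATACCATC (0.330), GTGACTCA (0.332) and GTGAGTCA (0.337). Of these, 4 are AP-1 words with one flanking letter, AACAGGTG is an E-box word, and the remaining 5 overlap as parts of another longer sequence.

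Both longer sequences belong to families of interspersed repeats. The p42-side words assemble into a stretch from GAGA to CCACTG, which lies in Alu elements, and the EV-side words into a stretch from AATGA to CCATC, which lies in LINE-1 elements. The names come from general knowledge of these families, since no repeat annotation was used.

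The variable letters of the Alu-derived stretch were compared over the whole genome. hg38 holds 300123 copies with any 5 letters between GAGA and CCACTG. Of the 20851 copies that read TTGCG there, a C/EBP arm, 0.796% had a p42 summit within 50 bp (0.684 to 0.926) and 0.182% an EV summit (0.133 to 0.250), taking equal numbers of peaks. Of the 20475 copies that read TTGCA the shares were 0.571% and 0.195%. The most common version, TCGCG, differs by 1 letter and had no such difference, with 0.188% for p42 (0.146 to 0.242) and 0.225% for EV (0.179 to 0.284) among 31933 copies. The TTGCG copies had summits in 0.484% of cases in p42 Tm, 0.125% in EV Tm, 0.158% in p30 DMSO and 0.125% in p30 Tm, so that both p42 lists stood above the 4 lists of EV and p30.

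The LINE-1-derived stretch had the opposite order. Of the 21640 copies that read GATA between AATGA and CCATC, 1.23% had a p42 summit within 50 bp (1.09 to 1.38) and 2.57% an EV summit (2.37 to 2.79). The shares were 1.90% in p30 DMSO, 0.906% in p42 Tm, 1.97% in EV Tm and 1.43% in p30 Tm. With any letters in place of GATA there were 36028 copies, of which 0.858% had a p42 summit and 1.70% an EV summit. The stretch in this wider form was present in 0.156% of p42-only, 0.383% of shared and 1.08% of EV-only windows. Of the 356 EV-only windows with it, 325 also held a RUNX word. Without those regions 11% of EV-only regions held a RUNX word, still above p42-only regions. Reads from near-identical repeat copies can be placed on the wrong copy, and no mapping-quality filter is named in the study's methods, so that the position of a single repeat peak is less certain than the sum over a family.

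The same counting over all copies of a word in the genome set the C/EBP palindrome beside its variants with 1 letter changed. Over all positions the mean was 60.4 summits per 10000 in each list. The 3134 copies of TTGCGCAA had a summit within 50 bp at 258 per 10000 in p42 and 160 in EV, and the 107685 copies of TTGCACAA at 159 and 86.4. The variant TTACGCAA had 239 and 129. Copies with the first T or the second T changed to C were close in both lists, with 190 and 176 for CTGCGCAA and 261 and 276 for TCGCGCAA. The second T changed to G gives TGGCGCAA, a word of the Alu-derived stretch, which had 143 and 53.3. ATGAGTCA, an AP-1 word, had 315 in p42 and 452 in EV. Of 27701 words with at least 200 nearby summits in either list, 7 were at least 2-fold higher in p42 and none in EV. Of the 7, 6 are words of the Alu-derived stretch or its flank and the other is TTACGTAA, with 168 and 74.8.

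Shared regions differed in rank along the same lines. With equal numbers of peaks, 11528 of 134648 shared regions (8.56%) stood at least 25 percentile points higher in the p42 list and 12700 (9.43%) at least 25 points higher in the EV list. C/EBP words were in 2.61% of the former (2.34 to 2.92) and 0.638% of the latter, and AP-1 words in 6.92% and 17.5%. RUNX words were in 8.40% and 15.4%, and GATA words in 2.36% and 5.41%. The median shift towards p42 was 5.68 points for shared regions with a C/EBP word, 7.33 for C/EBP:AP-1 and 4.30 for ATF4. It was -6.02 for AP-1, -3.80 for RUNX and -4.47 for GATA, and -0.389 for PU.1, near the -0.0107 of all shared regions.

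The 4 lists that were not used to define the classes were examined next. Of p42-only regions, 36.8% had a peak in p42 Tm and 18.5% in EV Tm. Of EV-only regions, 23.5% had a peak in p42 Tm and 38.2% in EV Tm. The contrast was wider for strong regions, since 92.6% of strong p42-only regions (91.8 to 93.4) were found in p42 Tm and 35.8% in EV Tm, while 61.6% of strong EV-only regions (56.5 to 66.4) were found in p42 Tm and 94.6% in EV Tm. The same split between p42 and EV in the Tm lists was seen for 25.2% of p42-only regions, against 6.92% with the reverse split, and for 24.0% of EV-only regions, against 9.26%. Nevertheless 56.3% of p42-only and 52.5% of EV-only regions were in neither Tm list.

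Both p30 lists had peaks more often in EV-only than in p42-only regions. p30 DMSO had a peak in 23.5% of p42-only and 41.5% of EV-only regions, and in 45.6% and 94.9% of the strong ones. p30 Tm had 17.1% and 33.4%, and 35.1% and 91.1%. Shared regions were found in 87.1% to 91.2% of cases in each of the 4 lists. Among p42-only regions with a C/EBP word, 49.0% were in p42 Tm, 10.5% in EV Tm, 11.9% in p30 DMSO and 9.55% in p30 Tm. Without the word the shares were 36.4%, 18.8%, 23.9% and 17.3%. Regions split in the same way in DMSO and after Tm held C/EBP words in 4.76% of p42-only and 0.381% of EV-only cases, and AP-1 words in 6.10% and 19.4%.

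In the genome, list-specific regions lay away from promoters. Of p42-only regions, 10.3% were within 1000 bp of a start site, 3.75% in other exons, 52.2% in introns and 33.8% between genes. The shares of shared regions were 21.1%, 3.85%, 46.0% and 29.1%, and those of EV-only regions 12.4%, 3.43%, 50.9% and 33.2%. The median distance to the nearest start of any annotated gene, protein-coding or not, was 11628 bp for p42-only, 7651 bp for shared and 11073 bp for EV-only regions. The order of the p42-only and EV-only promoter shares depended on the threshold. Strong p42-only regions were at promoters in 8.78% of cases (7.99 to 9.65) and strong EV-only regions in 6.72% (4.59 to 9.73), and the intervals overlapped. C/EBP words favoured p42-only regions in every place, with 2.36% against 0.367% at promoters, 3.08% against 0.472% in introns and 2.95% against 0.421% between genes.

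The classes were spread over all chromosomes. The p42-only share ranged from 25.8% on chromosome 19, which is gene-rich, to 39.6% on chromosome 13. Chromosome 13 also had the highest EV-only share (15.3%) and the densest regions (139 per Mb), so that its regions were less often shared in both directions. Of 2919 windows of 1 Mb, 2066 held a strong p42-only region and 334 a strong EV-only region. The window with the most strong p42-only regions, 13 with none on the EV side, was chr13:50000001-51000000, with TRIM13, KCNRG, DLEU7 and RNASEH2B. The next were chr13:79000001-80000000, with RBM26 and NDFIP2, and chr14:92000001-93000000, with SLC24A4, RIN3 and LGMN among others, each with 10. The most for EV was 3. The local background of these windows was above the median of the whole list (0.707 in p42), at 0.998, 0.821 and 0.980, and its part in the counts was not tested.

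Longer genes offer more room for a region, and the counts below were not corrected for length. EYS, a retinal gene of 1987 kb, had 7 strong p42-only regions over its body or within 20 kb and no strong EV-only region. RNASEH2B, a subunit of the enzyme that removes ribonucleotides from DNA, had 6 over its body or within 20 kb. MTUS2, DLEU7 and ENOX2 had 5 each. On the EV side SLC4A10 had 3, and FAF1, FAM167A, LCP1 and AFF1 had 2 each. AFF1 also had 2 strong p42-only regions, and SLC4A10 and FAF1 had 1 each. LCP1 encodes L-plastin, an actin-bundling protein of leukocytes. Over all 19962 protein-coding genes, 3543 (17.7%) had a strong p42-only and 298 (1.49%) a strong EV-only region within this distance.

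The strongest p42-only region lay in an intron, 775672 bp from the start of TECRL, with 36 tags in p42 DMSO, 25 in p42 Tm, 5 in p30 DMSO, 6 in p30 Tm and no peak in either EV list. The region in CNOT10, a subunit of the CCR4-NOT deadenylase, had 32 tags in p42 DMSO, 22 in p42 Tm, 9 in p30 DMSO and no peak in the other 3 lists. The next in order was the BRCA2 region shown above, which held C/EBP, NFIL3/PAR and MYB words. In all 3 the p42 lists stood apart from the other 4. The region near BLZF1, a Golgi protein gene, held a C/EBP:AP-1 word and had 30 tags in p42 DMSO, 15 in p42 Tm and no peak elsewhere. The other members of the first 10 were near ARHGEF26, SMAD2, DOCK8, GRPEL1, PLGLB1 and LDB3, with 26 to 36 tags in p42 DMSO and 18 to 27 in p42 Tm. They were less restricted, since 5 of these 6 had a peak in EV Tm, with 5 to 11 tags, and 5 had one in p30 DMSO, also with 5 to 11 tags. Of the first 10, 3 held a C/EBP, C/EBP:AP-1 or ATF4 word.

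The strongest EV-only region was in an intron 319234 bp from the start of HAS2, a hyaluronan synthase, and held an AP-1 word. It had 20 tags in EV DMSO, 16 in EV Tm, 11 in p30 DMSO, 18 in p30 Tm and 7 in p42 Tm. The region nearest IL12RB2, an interleukin-12 receptor chain, held a RUNX word and had 17 to 21 tags in all 4 EV and p30 lists and no peak in either p42 list. The region whose nearest protein-coding start was that of HSPH1, a chaperone of the HSP110 family, lay 81480 bp from it. This region had 20 tags in EV DMSO, 16 in EV Tm, 18 in p30 DMSO, 17 in p30 Tm and 8 in p42 Tm. The remaining members of the first 10 lay nearest OTOGL, HRH1, PTPRC, THSD7A, MYO1E, ENSG00000285566 and RANBP3L, with 17 to 21 tags in EV DMSO. Every one of the 10 had a peak in both EV Tm and p30 lists, and 7 also had a peak in p42 Tm.

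Lists of genes by function were then examined, counting regions over the gene body or within 20 kb. A region counted for a gene can therefore lie nearer the start of another gene. The share of p42-only regions, 35.5% over all regions, was 19.8% to 34.3% in the 16 lists, and that of EV-only regions, 11.6% over all, was 4.81% to 18.8%. Shared regions made up a larger part in each list than over all regions. The highest p42-only share was that of stem and progenitor genes, many of which are long, and the highest EV-only share that of the C/EBP family. Of 18 stem and progenitor genes 8 had a strong p42-only region (44.4%, beside 17.7% of all genes), and of 20 inflammatory mediators 5 (25%). No list had more than 1 gene with a strong EV-only region.

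Granule protein genes are classical C/EBP targets in neutrophil maturation. Of 10 primary granule genes 1 (10.0%) had a strong p42-only region, and of 12 secondary and tertiary granule genes 2 (16.7%), neither above the 17.7% of all genes. RNASE3 had 2 strong p42-only regions and no EV-only region. A region 15362 bp downstream of the start of MMP8, the neutrophil collagenase, held a C/EBP word and had 21 tags in p42 DMSO, 11 in p42 Tm and no peak in the other 4 lists. An intronic region of LTF, the lactoferrin gene, had 16 tags in p42 DMSO, 11 in p42 Tm, 5 in p30 DMSO and no EV peak. A single promoter region 28 bp from the start of PRTN3, proteinase 3, was also the strongest for its neighbours AZU1 and ELANE. It had 15 tags in p42 DMSO, 9 in p42 Tm, 9 in p30 DMSO, 7 in p30 Tm and no peak in either EV list. The CHI3L1 region had 13 tags in p42 DMSO, 9 in p42 Tm and no peak elsewhere.

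Receptors and recognition molecules of myeloid cells had both kinds of region. An intronic region 1097 bp from the start of CSF2RB, the common chain of the GM-CSF and interleukin-3 receptors, had 19 tags in p42 DMSO, 15 in p42 Tm and no peak in the other lists. CSF1R, the M-CSF receptor, had a p42-only region at its start with 18 tags, which was absent from all other lists. It also had a strong EV-only region 6180 bp upstream, with 16 tags in EV DMSO, 13 in p30 DMSO, 8 in EV Tm, 10 in p30 Tm and no peak in either p42 list. The FLT3 region was less restricted, with 13 tags in p42 DMSO, 16 in p42 Tm, 10 in EV Tm, 6 in p30 DMSO and 8 in p30 Tm. For S100A12, which shared its strongest region with S100A9, the values were 13 in p42 DMSO, 12 in p42 Tm, 6 in EV Tm, 6 in p30 DMSO and no peak in p30 Tm. The TLR2 region held an ATF4 word and had 14 tags in p42 DMSO, 12 in p42 Tm and no peak in the other lists. The IL6R region, 27144 bp downstream of the IL6R start and nearer that of SHE, had 15 tags in p42 DMSO alone.

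Of regions near inflammatory mediators 30.0% were p42-only and 7.83% EV-only, and near interferon genes 19.8% and 10.2%, beside 35.5% and 11.6% over all regions. The strongest p42-only regions of these lists had the following values. A region 3313 bp downstream of the start of CXCL10, and also the strongest for its neighbour CXCL11, a pair of interferon-induced chemokines, had 15 tags in p42 DMSO, 7 in p42 Tm and no peak elsewhere. NLRP3, the sensor of the inflammasome, had a region with 28 tags in p42 DMSO, 23 in p42 Tm, 19 in p30 DMSO and no peak in EV. PTGS2, the inducible cyclooxygenase, had 13, 12 and 5 in the same lists and 8 in EV Tm. The region near OAS1, an antiviral enzyme, had 26 tags in p42 DMSO, 18 in p42 Tm, 7 in EV Tm and 5 in p30 DMSO. IFIT1 had 13 in p42 DMSO and 9 in p42 Tm. Of the NF-κB genes, NFKBIE had 17 tags in p42 DMSO alone, whereas NFKBIA, which encodes the inhibitor IκBα, had an EV-only region 11669 bp upstream with 11 tags in EV DMSO, 12 in EV Tm, 9 in p30 DMSO, 8 in p30 Tm and no p42 peak.

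Stress, progenitor and cell cycle genes gave the following values. GADD45A, induced by DNA damage, had 26 tags in p42 DMSO, 18 in p42 Tm and 6 in EV Tm. A region 26282 bp downstream of the start of PROM1, which encodes the progenitor antigen CD133, lay nearer the start of FGFBP1. It had 24 tags in p42 DMSO, 26 in p42 Tm and no peak in the other 4 lists. An intron of ERG held a C/EBP:AP-1 word and had 22 tags in p42 DMSO, 9 in p42 Tm and 7 in EV Tm. RUNX1 had 4 strong p42-only regions among 55 p42-only, 24 EV-only and 92 shared ones, the strongest with 19 tags in p42 DMSO, 12 in p42 Tm, 6 in p30 DMSO and no peak in EV Tm or p30 Tm. E2F2, an activator of S phase genes, had a region with a C/EBP:AP-1 word and 21 tags in p42 DMSO, 19 in p42 Tm and no peak elsewhere. CDKN1A, the inhibitor p21, had 12 tags in p42 DMSO, 11 in p42 Tm and no peak elsewhere at a region with an ATF4 word.

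**Figure D1:**
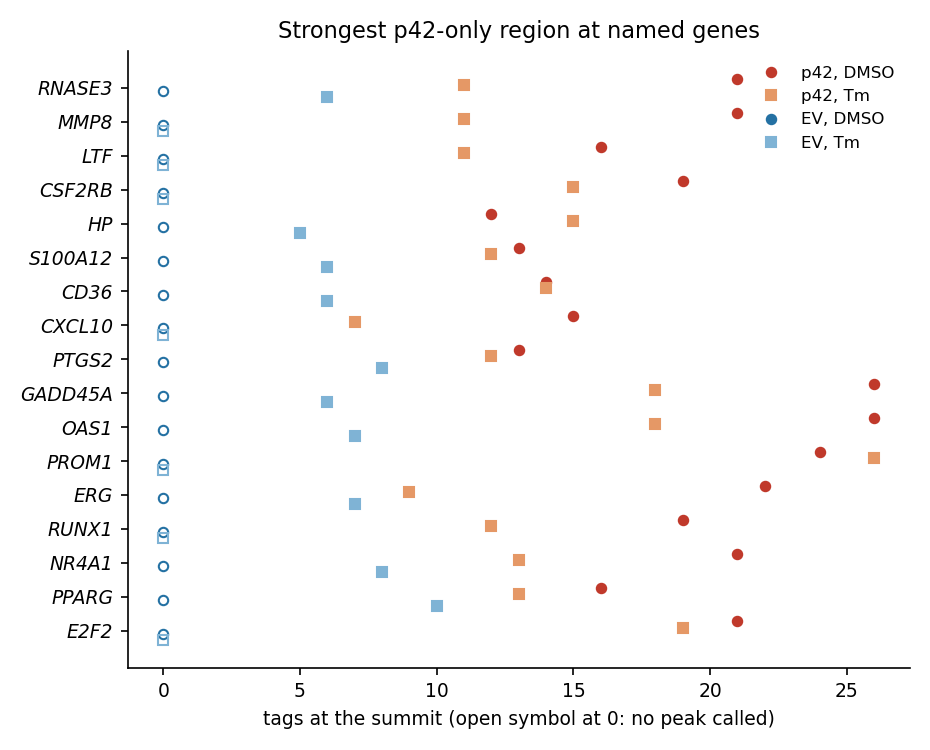
Tags at the summit of the strongest p42-only region of genes taken from the named ones after their values were seen, in p42 and EV cells in DMSO and after Tm, with open symbols at 0 where no peak was called. All EV DMSO symbols are open by the rule. The p42 Tm values lie between 7 and 26, and those of EV Tm are open or at most 10.

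For the C/EBP and AP-1 families themselves the differences were small. No C/EBP gene had a strong region of either class. CEBPE, which drives late granulocyte maturation, had 5 p42-only, 1 EV-only and 5 shared regions. The strongest p42-only one, 10843 bp upstream of CEBPE and 956 bp from the start of SLC7A8, had 11 tags in p42 DMSO and 7 in p42 Tm. CEBPA had 3 p42-only, 3 EV-only and 6 shared regions, and CEBPB 2, 4 and 6. The strongest EV-only region of CEBPA, 6170 bp downstream, had 25 tags in EV DMSO, 22 in p30 Tm, 19 in p30 DMSO, 18 in EV Tm and no p42 peak. FOS had 3 p42-only, no EV-only and 12 shared regions, and BATF was the one AP-1 gene with a strong p42-only region. That region lay 37519 bp downstream of the BATF start and nearer that of FLVCR2. It had 17 tags in p42 DMSO, 17 in p42 Tm, 8 in EV Tm and 6 in p30 DMSO. A region 19234 bp upstream of the start of ATF3, with ATF4 and AP-1 words, had 11 tags in p42 DMSO alone. CSF3R had 1, 3 and 9 regions, SOX4 0, 1 and 10, and MYC 2, 2 and 8, with 1 of the MYC regions strong in p42.

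At start sites few genes differed. Of 19962 protein-coding genes, 15740 had a peak of both lists within 1000 bp of a start and 3342 of neither. A p42 peak without an EV peak was found at 675 (3.38%) and the reverse at 205 (1.03%). Counting regions instead, 5639 genes (28.2%) had a p42-only region at a start and 2653 (13.3%) an EV-only region, but with equal numbers of peaks these were 3495 and 3750, so that the order turned. Of the 22 granule genes, 5 (22.7%) had a p42 and no EV peak at any start, and none had the reverse. They were PRG2, MMP8, PGLYRP1, HP and CYBB, of which MMP8 and CYBB lay at the edge, since their p42 peaks belonged to regions shared with an EV peak just outside the window. Counting regions instead, 6 of the 22 granule genes had a p42-only and 4 an EV-only region at a start. Among the 12 secondary and tertiary granule genes these were 2 and 3, so that granule promoters were not one-sided by this count. The HP promoter, of the haptoglobin gene, had 12 tags in p42 DMSO, 15 in p42 Tm, 5 in EV Tm and no peak in EV DMSO or p30. Of the other genes in the lists, TLR8 and ALB had the p42 peak alone and CD36 the EV peak alone, with 5 to 7 tags.

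The strongest promoter regions of this kind included CELA2A (23 tags in p42 DMSO, 23 in p42 Tm, 5 in EV Tm and 6 in p30 Tm), named after its values were seen. HCAR2 and HCAR3, adjacent receptors for nicotinic acid and hydroxylated fatty acids, each had 17 tags in p42 DMSO, 14 and 9 in p42 Tm and no peak in the other lists. These genes are near-identical copies, so that reads may be shared between them. On the EV side DDX4, a germ-line helicase, had 15 tags in EV DMSO, 11 in EV Tm, 14 in p30 Tm and 8 in each of p30 DMSO and p42 Tm. BMP10 had 14 in EV DMSO, 16 in p30 DMSO and no p42 peak.

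The labels were checked where the lists allowed it. All 8 myeloblast markers (CD33, SPI1, MPO, CD34, KIT, ANPEP, PTPRC and LYN) had a start-site peak in both lists, and none of 4 erythroid or 2 keratinocyte markers did. A start-site peak is a weak marker, since 2 of 3 T cell, 3 of 4 B cell and 3 of 3 neuronal genes also had one in both lists. CEBPA had 1 peak in every list, at 43 tags in p42 DMSO and 39 in EV DMSO. Over ESR1, whose hormone-binding part is used in ERT2 fusions, exon 4 held a peak in p42 DMSO (7 tags) and p42 Tm (12 tags) and in none of the other 4 lists. Exon 5 held one in p42 DMSO (5 tags) and p30 Tm (4 tags). No peak was found over either exon in p30 DMSO. Exons 6 and 7 held no peak in any list. Exon 8 held a peak in every list, with 18 tags in p42 DMSO, 17 in EV DMSO and 18 in EV Tm.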

How the data were processed

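ATAC-seq libraries were prepared with an in-house Tn5 from KO-52 cells, in duplicate per condition. According to the labels and the study's methods, the authors used Trim Galore 0.6.6 for trimming, Bowtie2 2.4.4 for alignment (hg38), Picard for the removal of duplicates and MACS2 for peak calling over the pooled replicates. A Tn5 shift, a mapping-quality filter and a filter on mitochondrial reads are not given in the sources used here. The deposited narrowPeak lists hold a fold (ratio) over the local background, a -log10 p and a -log10 q, a score and the offset of the summit in bp. The authors' score column was not used here. The fold changes of the lists are over background and compare no groups.

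Tags at each summit, the height of the caller's pileup, were solved from the deposited fold and -log10 p (tolerance 0.002 on the -log10 p), and 100.0% came out whole. Depth was estimated from the lowest background and a genome of 2700000000 bp. It limits which weak sites reach the threshold, so that equal numbers of peaks and a scaled p42 list were also used.

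Motif words were searched on both strands within 100 bp of the summit (the p42 summit in shared regions), where words may overlap, and 8-mers within 50 bp. Promoters, exons and introns came from GENCODE 44. Shares carry 95% Wilson intervals. Python 3.11.15, pandas 2.3.3, NumPy 2.4.6, SciPy 1.17.1 and pysam 0.24.0 were used, and the scripts were tested on simulated data. Genes were named by rule. These were up to 4 per list with the strongest p42-only or EV-only region, 7 genes named in all cases, the nearest genes of the 10 strongest regions of each class, and the 5 genes and 5 windows with most strong regions. The regions, lists and words were chosen with earlier results of these data known. Alternatives varied the number of peaks, threshold, overlap, chromosomes, depth, motif window and promoter width. Some items are not reported here.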

Additional observations from a re-analysis of the deposited data

How the results depend on the processing

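No paired analysis was possible because each list pools both replicates, and for the same reason no replicate could be left out. None of the values below changed sign, but the order of p42-only and EV-only regions turned in 3 places. With equal numbers of peaks more genes had an EV-only than a p42-only promoter region, and at a -log10 q of 10, required in both lists or with no peak in the other, the promoter share was the higher one in p42-only regions. With equal numbers of peaks there were 49943 p42-only regions, C/EBP shares of 3.61% (p42-only) and 0.534% (EV-only), and p42-only shares of 6.22% for AP-1 and 11.1% for promoters, and 3495 genes had a p42-only promoter region. Requiring a -log10 q of 10 in both lists gave 27487 p42-only, 8156 EV-only and 60829 shared regions, a C/EBP share of 0.527% (EV-only), AP-1 shares of 7.05% and 20%, and a p42-only promoter share of 13.7%. Strong regions without any peak in the other list numbered 4508 and 372, with C/EBP in 6.57% and 0%, AP-1 in 5.97% and 29.0%, and promoters in 8.78% and 6.72%. An overlap of 50% gave an EV-only AP-1 share of 13.9% and promoter shares of 10.6% and 13.0%. Windows of 50 bp and 250 bp gave C/EBP shares of 1.65% and 4.44% (p42-only) and 0.182% and 1.48% (EV-only), and AP-1 shares of 3.97% and 11.5% (p42-only) and 10.6% and 19.0% (EV-only). Promoters of 500 bp and 2000 bp gave 6.26% and 16.5% (p42-only) and 7.46% and 18.7% (EV-only). Of the alternatives chosen after seeing the data, leaving out the LINE-1-derived stretch gave a RUNX share of 11% (EV-only), and depth scaling left 1407 strong p42-only regions. Another 36 values stayed within 1.5 times or within their interval, those on autosomes alone included. Without replicate lists the spread between cultures is unknown, and regions near the threshold in EV at 22.2 M tags cannot be told from those that depth kept out.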
